A study of Mus musculus with 16 samples.

Results

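The comparison described here is Foxp3UP against MockUP, 8 of the 16 libraries of an RNA-seq study of tumour-infiltrating mouse CD8 T cells. It was defined by the names of the raw count columns, 4 libraries of Foxp3UP and 4 of MockUP, and the libraries were paired by replicate number. The other 8 libraries, Foxp3DN and MockDN, entered only 1 test, that of the difference between the effects in the UP and DN arms. All cells were OT1 CD8 T cells of the C57BL/6 strain, whose transgenic receptor recognises an ovalbumin (OVA) peptide. They were transferred into tumour-bearing mice as a mixture of Foxp3 and Mock cells and recovered from the tumours after 5 days, by sorting on viability, CD8 and the congenic markers CD45.1 and/or CD90.1. Foxp3UP cells carried Foxp3 and MockUP cells were their control. The meaning of UP and DN, the vector, the tumour line, the age of the mice and any pooling of animals do not appear in the labels. No label says that replicates came from separate mice, so the p-values measure the spread between these libraries, which may be partly technical. The question is how the transcriptome of transferred CD8 T cells that express Foxp3 differs from that of control cells in the same kind of tumour.

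Foxp3 is the forkhead transcription factor that defines regulatory T cells, where it binds many enhancers and can activate or repress the genes near them. CD8 T cells do not normally express much of it. What a T cell shows to its surroundings is set by surface receptors, adhesion molecules and transporters, and by the cytokines, proteases and matrix proteins it secretes. The genes are therefore described below by the place and role of their products, from the cell surface through secreted proteins to transcription factors, signalling, cytoskeleton, enzymes and chromatin.

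Levels are given in CPM, read counts scaled to library size after TMM normalization. Differences are log2 fold changes of Foxp3UP over MockUP, fitted with edgeR and the replicate number as a block, and the value after ± is their standard error (SE). A gene was called higher or lower at an adjusted p under 0.05 over all 13022 genes tested. Many genes whose libraries are given below were selected by a rule that required no overlap between Foxp3UP and MockUP. For those genes the separation of the groups is not further evidence. Libraries held 9389477 to 12120895 counts, so 1 CPM was about 10 reads, and genes near that level have wide errors. MockUP 2 stood apart from the other libraries. The share of its 10 most abundant genes was 4.86%, and the other 3 MockUP libraries had 6.25% to 6.35%. Its mitochondrial share was 0.279%, against 0.541% to 0.709%, and its levels leaned more to long genes (rank correlation of level with length 0.372, against 0.250 to 0.289). That library enters every count below through pair 2.

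The labels were checked on 6 genes. Foxp3 measured 15.1, 20.9, 29.2 and 28.3 CPM in Foxp3UP 1 to 4 and 11.6, 13.03, 13.8 and 11.5 CPM in MockUP 1 to 4. The groups did not overlap, and Foxp3 was higher by 0.86 ± 0.17, adjusted p = 0.0142. Reads of the transferred construct and of the endogenous gene cannot be told apart in a count per gene. Thy1, which encodes CD90 and is a sort marker gene, was at 53.3, 52.9, 60.3 and 57.96 CPM in Foxp3UP and 789, 579, 1132 and 1184 CPM in MockUP, a difference of -3.98 ± 0.16 (adjusted p = 4.05e-05) that is not read as a finding, since the gene encodes a sort marker. Its difference between the UP and DN arms was -2.46 ± 0.16, adjusted p = 9.32e-06. Ptprc, the gene of CD45, differed by -0.01 ± 0.08, adjusted p = 0.952. Cd8a, Cd8b1 and Cd3e were at 567 CPM or more in all 8 libraries and were not called, with adjusted p of 0.154, 0.139 and 0.397. Trbv12-1, the variable segment of the OT1 beta chain, held 96.9% of all Trbv counts, and Cd4 stayed at or under 0.749 CPM. Of the markers of other cells, the 6 B cell genes had the highest sum, 280.4 to 352.7 CPM in Foxp3UP and 129.7 to 206.9 in MockUP. Nearly all of it came from Ighm (275.8 to 345.6 and 125.9 to 201.9 CPM), which was called higher, while Ms4a1 and Pax5 were at 0 in all 8 libraries. The summed level of 10 macrophage genes was 52.9 to 74.4 CPM in Foxp3UP and 36.6 to 55.4 in MockUP. Among these 10, Cd68 and Cd14 were called higher, while Csf1r, Lyz2 and the 3 C1q genes were not called. The 5 melanocyte genes summed to 61.5 to 141.1 CPM in Foxp3UP and 63.3 to 94.6 in MockUP, with none called. Neutrophil, erythroid and platelet markers stayed at or under 2.72 CPM in sum. The part of such cells in the results below was not tested.

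Across the transcriptome 1829 genes were called (14.0% of the 13022 tested), 917 higher (7.04%) and 912 lower (7.0%) in Foxp3UP. The 4 Foxp3UP libraries lay wholly above or below the 4 MockUP libraries for 2144 genes (16.5%), 1057 above (8.12%) and 1087 below (8.35%), among them 1305 of the 1829 called. Changes of at least 2-fold were more often upward, with 193 genes (1.48%) higher and 85 (0.653%) lower. Of the called genes, 1827 had the same sign in all 4 pairs, as did 5217 of all tested genes (40.1%). The number of calls depended on the replicates: it was 658 without the block, 347 without pair 1, 703 without pair 3, 505 without pair 4 and 4038 without pair 2, which holds MockUP 2. No called gene had the opposite sign under any of these settings. They reuse the same pairs, so this adds little to the shared sign given above.

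Genes of the surface and secreted classes were called more often than the rest, and the direction differed between classes. The lists used here hold 3270 tested protein-coding genes in 84 families and 6 classes. Of 758 surface genes, 131 were higher and 73 lower, with a median log2 fold change of 0.11. Of 203 genes of the secreted class, 55 were higher and 8 lower, with a median of 0.22 and pair medians of 0.17, 0.29, 0.28 and 0.30. Not all proteins of this class are secreted, since it also holds lysosomal cathepsins and the intracellular inhibitor Serpina3g. The annexin, S100 and galectin proteins are not all secreted either. The annexin, S100 and galectin list supplied 14 of the higher genes of the class, and the TNF ligand list 5 of its lower genes. Among 652 transcription factors the order was the opposite in the main count, 34 higher and 54 lower. The same held for 593 enzymes and chromatin or RNA proteins, 33 higher and 73 lower. Signalling genes gave 81 higher and 50 lower of 877, and cytoskeletal genes 17 and 7 of 189. Called in all were 14.9% and 12.7% of them, against 15.6% of all protein-coding genes tested (7.89% higher and 7.71% lower). The 7481 protein-coding genes in no list had 497 higher and 565 lower, with a median of 0.00, and the median over all genes tested was 0.002. The differences between classes were described and not tested. The plot of family shares shows which families made up these counts. Without pair 1, the setting with the fewest calls, the numbers higher and lower were 43 and 15 for surface, 19 and 4 for secreted, 4 and 12 for transcription factor, 3 and 8 for enzyme and chromatin, 4 and 2 for signalling and 6 and 6 for cytoskeletal genes. The counts of most families below fell with them.

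**Figure D1:**
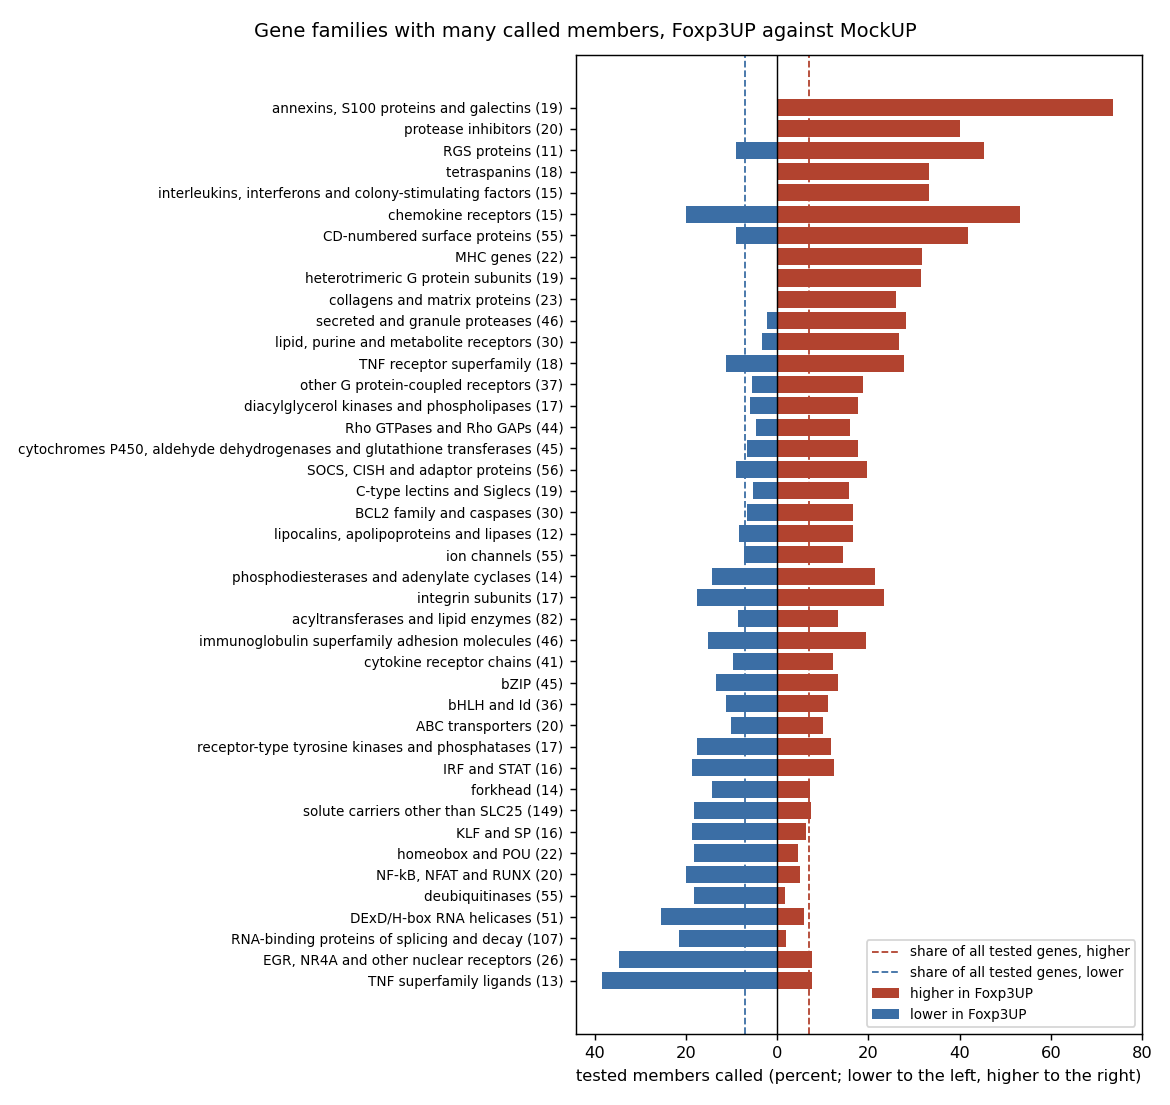
Percent of the tested members of each gene family called higher (right) or lower (left) in Foxp3UP, for the 42 families with at least 10 tested members (number in parentheses) and at least 20% called. Dashed lines mark the shares over all 13022 genes, 7.04% higher and 7.0% lower. Over protein-coding genes the shares were 7.89% and 7.71%. The annexin, S100 and galectin family stands at the top with 14 of 19 members higher, and the TNF ligands at the bottom with 5 of 13 lower.

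Promoter letters differed between genes that were higher and genes that were lower. Promoters from RefSeq (GRCm38.p6, 250 bases before to 50 after the start) were matched by symbol to 7597 tested protein-coding genes, 566 higher and 600 lower. Each motif was searched on both strands. The E-box CACGTG, the sequence that Myc, Max and Usf proteins bind, was in 17.7% of promoters of lower genes, 7.77% of higher genes and 10.7% of all 7597. The interferon-stimulated response element (ISRE) was in 7.24% of higher, 2.000% of lower and 3.26% of all. The AP-1 letters TGANTCA were in 6.36%, 3.500% and 4.51%, and the forkhead letters TGTTTAC in 4.06%, 2.500% and 2.59% of higher, lower and all promoters. In the same order, the Maf letters TGCTGA, which can share bases with an AP-1 match, gave 18.4%, 13.7% and 14.4%. The ETS letters CCGGAAGT (6.36%, 9.000% and 9.98%) and the CRE TGACGTCA (1.77%, 4.000% and 3.66%) were least frequent in higher genes. The TCF/LEF letters CTTTGAT were about as frequent in each set (2.297%, 2.33% and 2.55%).

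Base composition differed between these sets too. The median observed over expected CpG ratio was 0.582 in promoters of higher genes, 0.832 in those of lower genes and 0.792 in all. Among promoters below the median CpG ratio, the E-box was in 15.02% of lower and 7.14% of higher genes. Among those at or above it, the shares were 19.6% and 9.85%. The ISRE was in 8.53% of higher and 3.56% of lower genes below the median CpG ratio, and in 3.03% and 0.865% at or above it. The other motifs differed less evenly between these 2 sets of promoters. The Maf letters were in 19.4% of higher and 19.4% of lower genes below the median, and in 15.2% and 9.51% at or above it. The AP-1 letters turned from 7.604% against 3.56% below it to 2.27% against 3.46% at or above it, in the same order. The forkhead letters gave 4.61% against 3.16% and 2.27% against 2.02%. The ETS letters gave 4.84% against 6.72% and 11.4% against 10.7%. The TCF/LEF letters, about as frequent in each set as a whole, gave 2.76% against 1.58% and 0.758% against 2.88%. The CRE was less frequent in higher genes in both, 1.15% against 1.58% and 3.79% against 5.76%. These shares are descriptions of letters and carry no test. The 250 bases before the start are shown, on the strand of the gene, for 6 named genes whose motif lies there, with the motif in capitals. Dhx33 (chr11:71004433-71004682, minus strand), an RNA helicase gene, and Prmt1 (chr7:44986421-44986670, minus strand), an arginine methyltransferase gene, were lower and hold an E-box. Ddx60 (chr8:61927837-61928086, plus strand), an interferon-induced helicase gene, and Tmem140 (chr6:34862896-34863145, plus strand) were higher and hold the ISRE letters. Axl (chr7:25788734-25788983, minus strand), a receptor tyrosine kinase gene, was higher and holds the forkhead letters. Glrx (chr13:75839635-75839884, plus strand), the glutaredoxin gene, was higher and holds the AP-1 letters. These 6 go with the shares above, while some other named genes do not. Asb2, Tnfrsf4 and Tnfrsf8 were higher and hold an E-box there. Itgax and Tnfsf14 were lower and hold the AP-1 letters. Ccr3, Ecm1, F2rl2 and Tnfrsf8 were higher and hold the AP-1 letters, and so go with the shares for that motif.
Dhx33: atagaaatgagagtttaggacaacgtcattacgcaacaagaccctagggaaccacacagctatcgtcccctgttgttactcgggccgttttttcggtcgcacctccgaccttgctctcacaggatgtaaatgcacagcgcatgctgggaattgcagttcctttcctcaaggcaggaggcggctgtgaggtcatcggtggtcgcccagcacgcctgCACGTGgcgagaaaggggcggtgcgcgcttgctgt
Prmt1: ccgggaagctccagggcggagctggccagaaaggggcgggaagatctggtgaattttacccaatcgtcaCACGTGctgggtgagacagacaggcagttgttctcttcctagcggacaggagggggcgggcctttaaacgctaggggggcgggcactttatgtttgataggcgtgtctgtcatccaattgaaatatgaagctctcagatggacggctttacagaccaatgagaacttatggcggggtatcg
Ddx60: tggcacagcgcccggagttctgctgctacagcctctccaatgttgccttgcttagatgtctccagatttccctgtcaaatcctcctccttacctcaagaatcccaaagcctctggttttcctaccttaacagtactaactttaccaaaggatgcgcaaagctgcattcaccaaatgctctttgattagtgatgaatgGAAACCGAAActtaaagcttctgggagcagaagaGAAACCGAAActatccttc
Tmem140: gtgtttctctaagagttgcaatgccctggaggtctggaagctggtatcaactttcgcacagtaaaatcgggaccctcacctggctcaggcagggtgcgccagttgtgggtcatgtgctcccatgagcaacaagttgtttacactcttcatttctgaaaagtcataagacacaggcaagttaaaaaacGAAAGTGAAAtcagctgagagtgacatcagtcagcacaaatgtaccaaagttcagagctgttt
Axl: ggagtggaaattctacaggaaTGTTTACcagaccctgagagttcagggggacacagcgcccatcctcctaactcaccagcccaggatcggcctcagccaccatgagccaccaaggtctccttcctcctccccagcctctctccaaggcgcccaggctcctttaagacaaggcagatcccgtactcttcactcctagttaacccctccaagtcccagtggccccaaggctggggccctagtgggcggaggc
Glrx: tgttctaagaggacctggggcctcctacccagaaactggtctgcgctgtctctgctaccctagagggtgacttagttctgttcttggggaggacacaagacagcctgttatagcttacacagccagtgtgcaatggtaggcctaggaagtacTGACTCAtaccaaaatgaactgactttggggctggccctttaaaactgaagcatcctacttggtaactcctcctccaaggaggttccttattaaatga

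**Figure D2:**
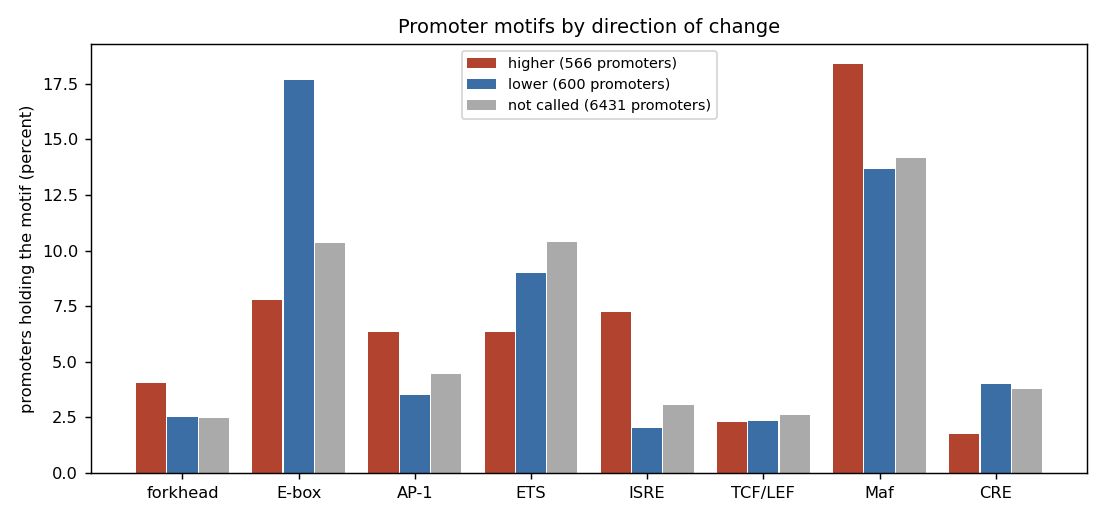
Percent of RefSeq promoters that hold each motif on either strand, for genes higher in Foxp3UP (red), lower (blue) and not called (grey). The E-box bar is tallest for lower genes at 17.7% and the ISRE bar for higher genes at 7.24%.

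Several receptors coupled to G proteins rose by large amounts. The chemokine receptor gene Ccr3 had the largest upward change of the surface lists, 6.09 ± 0.27 (edgeR, adjusted p = 5.6e-05). Nmur1, the receptor for the neuropeptide neuromedin U, lies at chr1:86386303-86426228 (mm10, minus strand) and measured 4.39, 2.82, 4.37 and 2.14 CPM in Foxp3UP 1 to 4 and 0.464, 0.285, 0 and 0.217 CPM in MockUP 1 to 4. It was near 0 in all MockUP libraries and clearly detected in all Foxp3UP libraries, a change of 3.74 ± 0.47, adjusted p = 0.00334. Cysltr1, a receptor for cysteinyl leukotrienes, measured 10.9, 9.95, 8.83 and 10.6 CPM in Foxp3UP 1 to 4 and 5.38, 2.28, 1.21 and 1.302 CPM in MockUP 1 to 4 and rose by 2.07 ± 0.32, adjusted p = 0.00662. The groups did not overlap, and MockUP 1 was the highest control. Ltb4r1, the high-affinity leukotriene B4 receptor, measured 83.1, 66.98, 65.7 and 57.96 CPM in Foxp3UP 1 to 4 and 31.7, 17.1, 19.6 and 18.2 CPM in MockUP 1 to 4 and rose by 1.69 ± 0.12, adjusted p = 0.000827. The lowest Foxp3UP library lay well above the highest MockUP library. In the family of lipid, purine and metabolite receptors 8 of 30 members rose and 1 fell. The others that rose included Cysltr2 (1.10), the prostacyclin receptor Ptgir (0.85), the prostaglandin E2 receptor Ptger2 (0.51) and Gpr183 (0.36), a receptor for oxysterols. The other E2 receptor tested and called, Ptger4, fell by 0.37 on the log2 scale.

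The neuropeptide CGRP and its receptor appeared on both sides of the secreted and surface lists. Ramp1 encodes the subunit that joins the product of Calcrl to form the CGRP receptor. It measured 10.6, 7.05, 4.66 and 6.63 CPM in Foxp3UP 1 to 4 and 2.32, 0.951, 1.92 and 2.06 CPM in MockUP 1 to 4 and rose by 1.99 ± 0.26, adjusted p = 0.00388, while Calcrl rose by 0.78 ± 0.18, adjusted p = 0.0293. Calca, whose transcripts encode calcitonin and CGRP, measured 2.81, 3.73, 3.37 and 2.67 CPM in Foxp3UP 1 to 4 and 1.39, 0.475, 0.506 and 0.651 CPM in MockUP 1 to 4 and rose by 2.05 ± 0.36, adjusted p = 0.0102. Counts per gene do not show which Calca product was made, and its level was low in every library. Of 37 other receptors of this kind 7 rose and 2 fell. F2rl2, the protease-activated receptor 3 gene, measured 59.1, 54.4, 63.1 and 53.8 CPM in Foxp3UP 1 to 4 and 28.6, 17.1, 17.4 and 18.7 CPM in MockUP 1 to 4 and rose by 1.52 ± 0.14, adjusted p = 0.00151. Gpr55 (1.42) and Adgrg5 (1.49) rose too, while the beta-1 adrenergic receptor Adrb1 fell by 1.71 on the log2 scale.

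**Figure D3:**
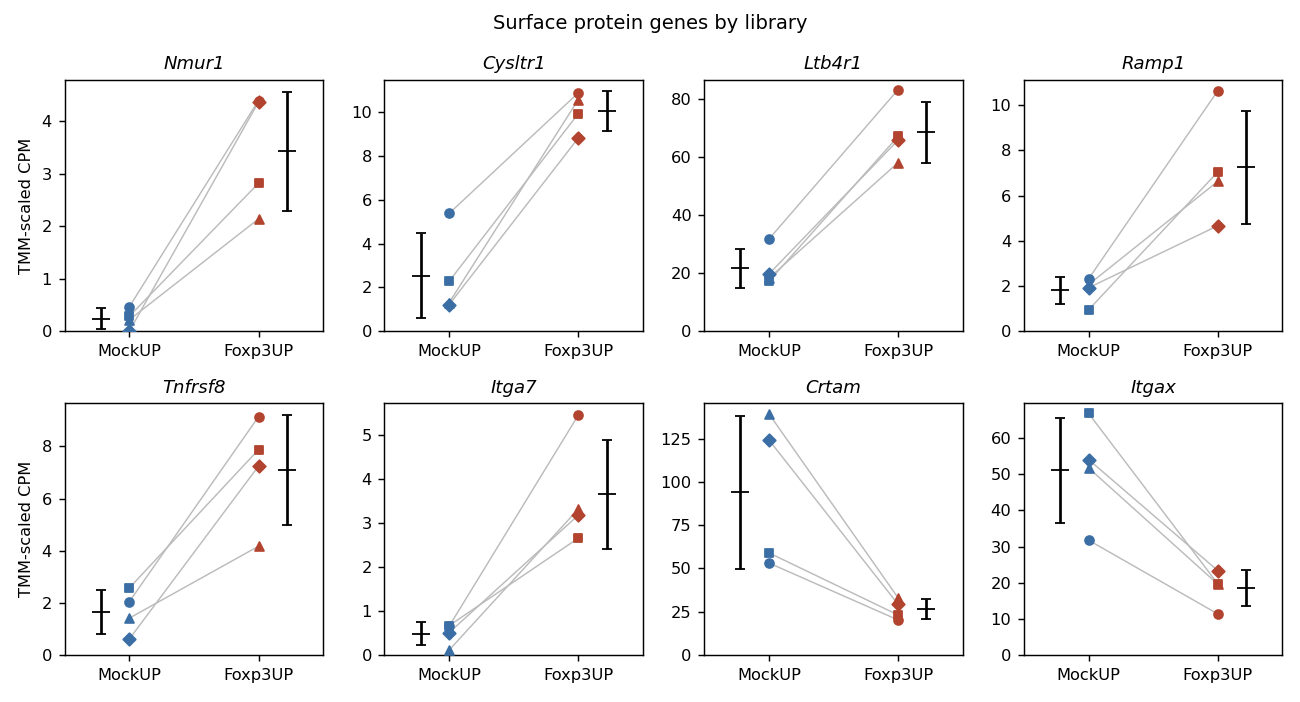
TMM-scaled CPM of 8 surface protein genes in each library (circle, square, diamond and triangle are replicates 1 to 4, grey lines join pairs, black bars give mean ± SD, n = 4). In each panel the 4 Foxp3UP libraries lie apart from the 4 MockUP libraries, above them in the first 6 genes and below them in Crtam and Itgax. The rule that selected most of these genes required such separation, so it is not further evidence.

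Chemokine receptors changed in both directions, with 8 of 15 higher and 3 lower. Receptors for inflammatory chemokines were among those that rose, Ccr4 by 1.64 ± 0.24, adjusted p = 0.00535, Ccr1 by 1.24 ± 0.17, adjusted p = 0.00475, and Ccr2 by 1.01 ± 0.07, adjusted p = 0.000839. Ccr2 measured 1027, 933, 1289 and 1163 CPM in Foxp3UP 1 to 4 and 502, 485, 640.3 and 564 CPM in MockUP 1 to 4, and all 4 pairs moved by a similar amount. Cxcr3 (0.69), Ccrl2 (0.52) and Cxcr6 (0.38) also rose. The receptors that fell were Cx3cr1 (-1.39), the lymph-node homing receptor Ccr7 (-0.54) and Ccr8 (-0.53). Ccr1 and Ccr2 are close neighbours in sequence and on the chromosome, and shared reads were not assessed. Without pair 1, 5 were called higher and 0 lower.

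Receptors of the TNF superfamily and their ligands moved in different directions in the main count. Of 18 receptors 5 rose and 2 fell, while of 13 ligands 1 rose and 5 fell. Tnfrsf8, the gene of CD30, measured 9.14, 7.88, 7.24 and 4.17 CPM in Foxp3UP 1 to 4 and 2.04, 2.57, 0.607 and 1.41 CPM in MockUP 1 to 4 and rose by 2.11 ± 0.30, adjusted p = 0.00499. All Foxp3UP libraries lay above all MockUP libraries. Its ligand gene Tnfsf8 fell by 1.95 ± 0.11, adjusted p = 0.000217. Tnfsf14, the gene of the ligand LIGHT, measured 9.67, 13.8, 20.1 and 21.1 CPM in Foxp3UP 1 to 4 and 23.1, 31.6, 55.6 and 52.4 CPM in MockUP 1 to 4 and fell by 1.31 ± 0.11, adjusted p = 0.000936. Tnfsf11, the RANK ligand gene, fell by 0.81 ± 0.13, adjusted p = 0.00784, from 14.7, 17.4, 21.1 and 15.8 CPM in MockUP 1 to 4 to 7.998, 11.6, 10.02 and 9.73 CPM in Foxp3UP 1 to 4. Libraries of the 2 groups did not overlap for either ligand. The OX40 ligand gene Tnfsf4 (-1.02) and Cd40lg (-1.24) fell too, and lymphotoxin beta, Ltb, was the ligand gene that rose (0.77). The death receptor genes Tnfrsf25 (-1.98) and Tnfrsf21 (-1.04) were the receptors that fell. Without pair 1, 1 receptor was called higher and 2 lower, and 1 ligand was called higher and 3 lower.

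Cytokine receptor chains showed no common direction, with 5 of 41 higher (12.2%) and 4 lower (9.76%), against 7.89% and 7.71% of all protein-coding genes. Il12rb1 (1.27), a chain of the IL-12 and IL-23 receptors, Acvrl1 (1.36), a BMP type receptor, and the IL-1 decoy receptor Il1r2 (0.95) rose. Both chains of the IL-18 receptor fell, Il18r1 by 0.32 and Il18rap by 0.67 on the log2 scale, while Il18, the cytokine gene itself, rose by 1.41 ± 0.29, adjusted p = 0.017. Tgfbr3, the betaglycan co-receptor of TGF-beta, fell by 1.42 ± 0.26, adjusted p = 0.0121. Its levels were 1.05, 1.82, 0.496 and 0.855 CPM in Foxp3UP 1 to 4 and 2.51, 4.28, 2.33 and 2.17 CPM in MockUP 1 to 4, with MockUP 2 the highest.

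Integrins and adhesion molecules changed in both directions. Itga7, a laminin-binding integrin alpha chain at chr10:128933818-128958282 (mm10, plus strand), measured 5.45, 2.65, 3.18 and 3.31 CPM in Foxp3UP 1 to 4 and 0.65, 0.666, 0.506 and 0.108 CPM in MockUP 1 to 4 and rose by 2.86 ± 0.36, adjusted p = 0.00345. Itgb7 (0.97) and the collagen-binding chain Itga2 (0.83) rose, and Itgb1 (-0.83) and Itga4 (-0.43) fell. Itgax, the CD11c gene, measured 11.3, 19.6, 23.3 and 19.6 CPM in Foxp3UP 1 to 4 and 31.7, 66.8, 54.1 and 51.7 CPM in MockUP 1 to 4 and fell by 1.47 ± 0.12, adjusted p = 0.000995. Of the other dendritic cell genes on the list, Xcr1 was at 14.2 to 22.4 CPM in Foxp3UP and 15.5 to 19.1 CPM in MockUP and was not called (adjusted p = 0.984), and Clec9a, Flt3, Siglech and Cd209a stayed at or under 0.278 CPM. In the immunoglobulin superfamily 9 of 46 rose and 7 fell. Crtam, an adhesion molecule of activated cytotoxic T cells, measured 20.2, 23.1, 29.3 and 33.04 CPM in Foxp3UP 1 to 4 and 53.2, 59.05, 124 and 139.5 CPM in MockUP 1 to 4. It fell by 1.73 ± 0.16, adjusted p = 0.00126, and in both groups replicates 3 and 4 were higher than replicates 1 and 2. Mpzl2, a homophilic adhesion protein, measured 0.439, 1.16, 1.09 and 0.962 CPM in Foxp3UP 1 to 4 and 2.599, 3.61, 3.44 and 4.12 CPM in MockUP 1 to 4 and fell by 1.91 ± 0.26, adjusted p = 0.0041. Crtam and Mpzl2 lie within 10 Mb of the sort marker gene Thy1 on chromosome 9, and the part of that region in their change was not tested. Pvrig (1.93) and Pdcd1lg2 (0.83) rose, and Btla (-1.15) and Jaml (-0.89) fell. Cdh17, a cadherin, rose by 1.68 ± 0.19, adjusted p = 0.00221.

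The lists of CD-numbered genes, tetraspanins, MHC, Ly6-type and TMEM-named genes each had more members higher than lower. Of 55 genes named by a CD number 23 rose and 5 fell, with pair medians of 0.28, 0.45, 0.32 and 0.29. Cd200r1 (1.33), Cd86 (1.00), Cd52 (0.94) and Cd2 (0.63) were among them, as were Cd68 (0.85) and Cd14 (0.94), which are also on the macrophage list. Of 18 tetraspanins 6 rose and 0 fell. Tspan32 measured 88.1, 56.95, 57.7 and 47.4 CPM in Foxp3UP 1 to 4 and 46.1, 23.96, 23.8 and 25.8 CPM in MockUP 1 to 4 and rose by 1.08 ± 0.11, adjusted p = 0.00185, with MockUP 1 the highest control. Of 22 MHC genes 7 rose and 0 fell, among them the class II genes H2-Ob (1.07), H2-Ab1 (0.84) and H2-DMa (0.62). Their reads may be shared within the family, and class II genes are also expressed by macrophages and B cells. Of 6 Ly6-type genes 4 rose, Ly6e by 0.76 ± 0.11, adjusted p = 0.00499, and the urokinase receptor Plaur fell by 0.99 on the log2 scale. Axl, the receptor for Gas6, rose by 1.19 ± 0.14, adjusted p = 0.00243, with 57.6, 46.5, 36.6 and 33.9 CPM in Foxp3UP 1 to 4 against 28.96, 25.01, 12.6 and 12.9 CPM in MockUP 1 to 4. Its promoter is among those shown above. Of 142 TMEM-named genes 19 rose and 3 fell, but the family median was 0.21 in pair 2 and only 0.01 in pair 4. Without pair 1 the numbers called higher were 3 CD-numbered genes, 2 tetraspanins, 2 MHC genes, 2 Ly6-type genes and 1 TMEM-named genes. The number of CD-numbered genes called lower in that setting was also 3.

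Solute carriers were called lower more often than higher, while ion channels were not. Of 149 solute carriers 11 rose and 27 fell, although the family median was 0.03. Those that fell included importers of large neutral and cationic amino acids, Slc7a5 (-0.85) and Slc7a1 (-0.85), the glutamine transporter Slc1a5 (-0.54), the lactate carrier Slc16a1 (-0.69), and the vitamin carriers Slc19a1 (-0.91), for folate, and Slc5a6 (-0.91), for biotin and pantothenate. The equilibrative nucleoside transporter Slc29a2 measured 1.58, 4.06, 3.08 and 5.24 CPM in Foxp3UP 1 to 4 and 6.31, 7.04, 11.1 and 11.9 CPM in MockUP 1 to 4 and fell by 1.41 ± 0.22, adjusted p = 0.00741. Slc19a1 measured 38.4, 45.7, 46.2 and 52.4 CPM in Foxp3UP 1 to 4 and 65.99, 76.7, 99.7 and 106 CPM in MockUP 1 to 4 and fell by 0.91 ± 0.10, adjusted p = 0.00209. The groups did not overlap for either carrier. Slc41a3 (0.94), of a family of magnesium transporters, and Slc43a2 (0.70), another amino acid carrier, rose. Among 55 ion channels 8 rose (14.5%) and 4 fell (7.27%), against 7.89% and 7.71% of all protein-coding genes. Trpv2 was at 0.65 ± 0.08, adjusted p = 0.00242, and the potassium channel Kcnn4 at -0.28. Atp8a2, a phospholipid flippase, rose by 1.95 ± 0.26, adjusted p = 0.00426, with 5.54, 5.64, 12.8 and 9.52 CPM in Foxp3UP 1 to 4 against 1.49, 2.38, 3.44 and 1.19 CPM in MockUP 1 to 4. Abcb1b, a multidrug efflux pump, fell by 0.52 ± 0.10, adjusted p = 0.0135. Without pair 1 the solute carriers gave 1 higher and 4 lower.

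Of the 203 genes of the secreted class most were not called, and of those called more rose than fell. The cytokine list had 5 of 15 members higher and 0 lower. Ebi3, the subunit shared by IL-27 and IL-35, measured 5.36, 6.72, 6.55 and 6.31 CPM in Foxp3UP 1 to 4 and 3.99, 2.76, 1.01 and 1.63 CPM in MockUP 1 to 4 and rose by 1.44 ± 0.33, adjusted p = 0.0266. The lowest Foxp3UP library was above the highest MockUP library. Osm (0.49) and Csf1 (0.85) rose as well. Of 15 chemokines only Xcl1 was called, and it fell by 1.52 ± 0.24, adjusted p = 0.00758. Among 28 growth factors 5 rose (17.9%, against 7.89% of all protein-coding genes) and 0 fell (against 7.71%). Tgfa, a ligand of the EGF receptor, measured 3.87, 7.13, 7.34 and 6.42 CPM in Foxp3UP 1 to 4 and 0.928, 2.85, 2.02 and 2.28 CPM in MockUP 1 to 4 and rose by 1.63 ± 0.20, adjusted p = 0.0029. Angptl2 measured 4.57, 2.65, 2.98 and 2.89 CPM in Foxp3UP 1 to 4 and 1.76, 1.52, 0.202 and 1.08 CPM in MockUP 1 to 4 and rose by 1.54 ± 0.37, adjusted p = 0.0329, and Tgfb3 (0.95) and progranulin, Grn (0.69), rose.

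Proteases and protease inhibitors had more members higher than lower. Of 46 proteases 13 rose and 1 fell. Of 20 inhibitors 8 rose and 0 fell. The lysosomal cathepsins Ctsd (0.81), Ctso (0.59), Ctsa (0.48), Ctse (0.48), Ctss (0.47), Ctsb (0.44) and Ctsz (0.43) made up 7 of those proteases, and granzyme M, Gzmm, was the one that fell (-1.22). Ctsd measured 544, 422, 379 and 393 CPM in Foxp3UP 1 to 4 and 355, 191, 239 and 222 CPM in MockUP 1 to 4, with no overlap. Serpina3g, an intracellular inhibitor of cathepsins, measured 337, 324, 540.0 and 640.2 CPM in Foxp3UP 1 to 4 and 153, 147, 217 and 266 CPM in MockUP 1 to 4 and rose by 1.22 ± 0.08, adjusted p = 0.000482. Its near copy Serpina3f rose by 1.05, and reads may be shared between them. The C1 inhibitor Serping1 (1.46) and Serpinb1a (1.10) rose, and so did cystatin F, Cst7 (0.60). Cathepsins are abundant in macrophages, whose markers are given above, and their part was not tested. Matrix genes rose in 6 of 23 cases and fell in 0, with Col18a1 at 2.64 ± 0.38, adjusted p = 0.00529 and nidogen 2, Nid2, at 1.30. Col3a1 was called too (3.02) but at 0.264 to 4.28 CPM in Foxp3UP and 0 to 1.08 CPM in MockUP. The other fibroblast markers, Col1a1, Col1a2, Dcn and Pdgfrb, stayed at or under 2.03 CPM. Without pair 1, 5 proteases, 3 inhibitors and 2 matrix genes were called higher, and 1 protease lower.

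The annexins, S100 proteins and galectins, calcium- and glycan-binding proteins of which some leave cells without a signal peptide, changed in 1 direction. Of 19 members 14 rose and 0 fell, with pair medians of 0.45, 0.70, 0.57 and 0.45. Anxa1, annexin A1, measured 369.8, 288, 278 and 255 CPM in Foxp3UP 1 to 4 and 175, 104, 121 and 117 CPM in MockUP 1 to 4 and rose by 1.22 ± 0.09, adjusted p = 0.000867. The galectin gene Lgals1 measured 782, 682, 583 and 614 CPM in Foxp3UP 1 to 4 and 567, 212, 399 and 436 CPM in MockUP 1 to 4 and rose by 0.79 ± 0.20, adjusted p = 0.037. S100a6 (1.03), S100a10 (0.95), S100a11 (0.74), Lgals3 (0.64) and Anxa2 (0.41) rose too. Without pair 1 only 1 of the members was called, and without the block 2 were, while the family median stayed between 0.50 and 0.68 when any 1 pair was left out.

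**Figure D4:**
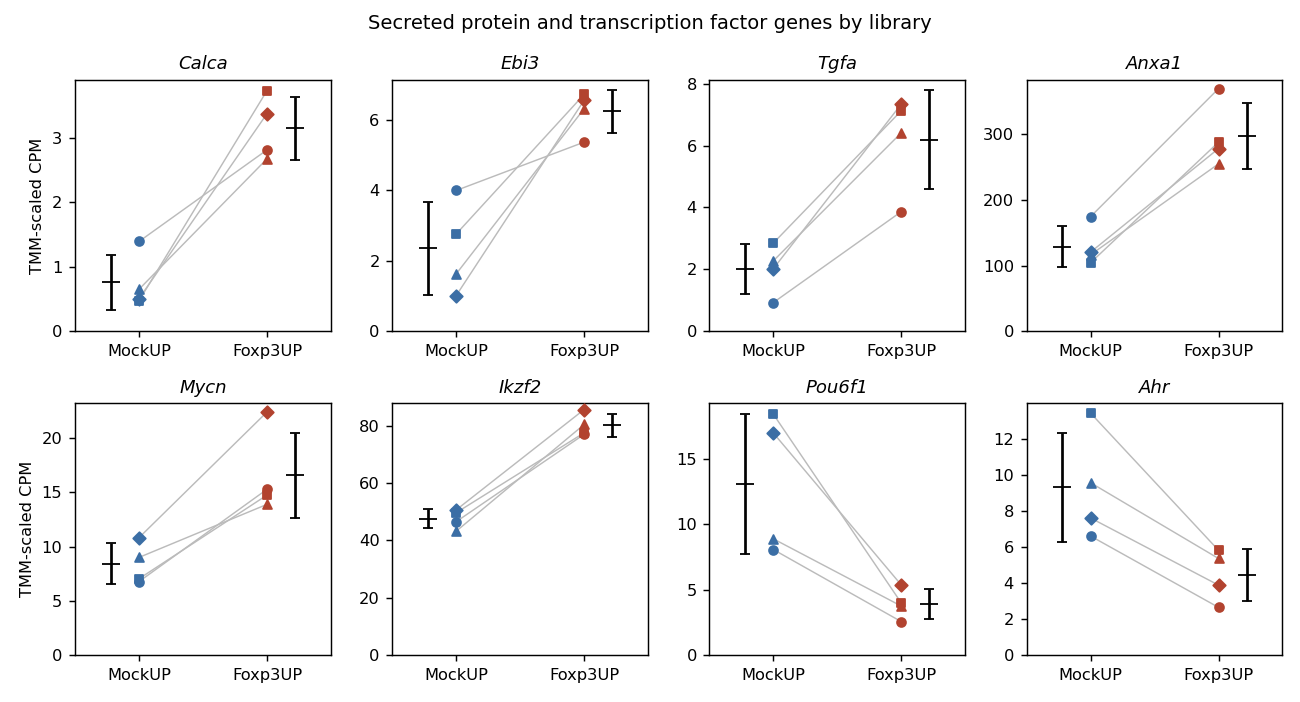
TMM-scaled CPM of 4 genes for secreted proteins and 4 for transcription factors in each library (circle, square, diamond and triangle are replicates 1 to 4, grey lines join pairs, black bars give mean ± SD, n = 4). The Foxp3UP libraries lie above all MockUP libraries for Calca, Ebi3, Tgfa, Anxa1, Mycn and Ikzf2 and below them for Pou6f1 and Ahr. Most of these genes were selected by a rule that required such separation, so it is not further evidence.

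Of 652 transcription factors 34 rose (5.21%, against 7.89% of all protein-coding genes) and 54 fell (8.28%, against 7.71%). In all, 13.5% were called, against 15.6%. The order did not hold in every setting, with 14 higher and 14 lower without the block and 105 higher and 102 lower with replicates 3 and 4 only. Of 26 immediate-early EGR and NR4A genes and other nuclear receptors 2 rose and 9 fell, among them Egr1 (-0.48), Egr2 (-0.59), Egr3 (-0.78), Nr4a1 (-0.61), Nr4a2 (-0.63) and Nr4a3. Nr4a3 measured 36.2, 63.3, 60.04 and 62.1 CPM in Foxp3UP 1 to 4 and 71.5, 132, 113 and 96.3 CPM in MockUP 1 to 4 and fell by 0.90 ± 0.10, adjusted p = 0.00212, with no overlap. Such genes respond within minutes to receptor signals and to tissue handling. In the NF-kB, NFAT and RUNX list 1 of 20 rose and 4 fell, with Rel at -0.65, Nfkb1 at -0.54 and Relb at -0.40. Pou6f1, a POU factor, measured 2.55, 3.98, 5.36 and 3.74 CPM in Foxp3UP 1 to 4 and 8.08, 18.4, 17.01 and 8.896 CPM in MockUP 1 to 4 and fell by 1.72 ± 0.18, adjusted p = 0.00197. Ahr, the aryl hydrocarbon receptor, measured 2.64, 5.803, 3.87 and 5.35 CPM in Foxp3UP 1 to 4 and 6.59, 13.4, 7.59 and 9.55 CPM in MockUP 1 to 4 and fell by 1.08 ± 0.16, adjusted p = 0.00516. Tgif2, a repressor of TGF-beta target genes, fell by 0.82 ± 0.14, adjusted p = 0.00886. Foxp4, a relative of Foxp3, measured 10.7, 12.8, 12.5 and 11.2 CPM in Foxp3UP 1 to 4 and 17.4, 44.4, 15.9 and 17.5 CPM in MockUP 1 to 4 and fell by 0.89 ± 0.23, adjusted p = 0.0404. MockUP 2 was its highest library, well above the other 7. Without pair 1, 2 of the EGR, NR4A and nuclear receptor list and 0 of the NF-kB list were called lower. In that setting 1 of the EGR, NR4A and nuclear receptor list was called higher.

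Some factors rose. Ikzf2, the Helios gene expressed by many regulatory T cells, measured 76.99, 77.5, 85.6 and 80.4 CPM in Foxp3UP 1 to 4 and 46.5, 49.6, 50.6 and 43.2 CPM in MockUP 1 to 4 and rose by 0.76 ± 0.09, adjusted p = 0.00254. Its relative Ikzf4, Eos, rose by 0.69. Mycn measured 15.3, 14.8, 22.4 and 13.9 CPM in Foxp3UP 1 to 4 and 6.78, 7.04, 10.8 and 9.004 CPM in MockUP 1 to 4 and rose by 0.98 ± 0.14, adjusted p = 0.00485, while Myc itself fell by 0.83 ± 0.08, adjusted p = 0.00161. Creb3l1, a membrane-bound factor of the secretory pathway, rose by 1.30 ± 0.34, adjusted p = 0.0418 at low levels, 3.08, 2.57, 2.88 and 3.21 CPM in Foxp3UP 1 to 4 against 2.32, 0.951, 1.01 and 0.542 CPM in MockUP 1 to 4. Arnt2 (2.56), Pparg (1.36) and Irf7 (0.50) rose, and Stat3 (-0.47), Stat5a (-0.60) and Irf8 (-0.54) fell. The 287 zinc finger genes named Zfp showed few calls, 8 higher and 7 lower. Zfp945 was the leading one that rose (0.72 ± 0.11, adjusted p = 0.00662).

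Signalling genes near receptors changed at several levels. Of 19 heterotrimeric G protein subunits 6 rose and 0 fell, among them Gnai2 (0.36), Gna15 (0.47) and Gng2 (0.54). Gngt2, a gamma subunit, measured 4.13, 3.07, 4.37 and 4.17 CPM in Foxp3UP 1 to 4 and 1.299, 0.666, 1.62 and 2.06 CPM in MockUP 1 to 4 and rose by 1.51 ± 0.25, adjusted p = 0.00784. Of 11 RGS genes, whose products switch G proteins off, 5 rose and 1 fell, with Rgs9 (1.04), Rgs11 (0.93) and Rgs10 (0.82) in front. Socs2, a feedback inhibitor of cytokine signals, measured 41.9, 41.8, 66.2 and 71.9 CPM in Foxp3UP 1 to 4 and 19.9, 21.8, 27.2 and 26.1 CPM in MockUP 1 to 4 and rose by 1.19 ± 0.12, adjusted p = 0.00163, while Socs1 fell by 0.42 on the log2 scale. Matk, a kinase that opposes Src-family kinases, rose by 1.10 ± 0.11, adjusted p = 0.00167, with 50.5, 37.7, 38.2 and 45.4 CPM in Foxp3UP 1 to 4 against 23.3, 20.3, 17.8 and 18.6 CPM in MockUP 1 to 4. Asb2, a substrate adaptor of a cullin ubiquitin ligase, measured 15.9, 14.7, 25.6 and 17.5 CPM in Foxp3UP 1 to 4 and 6.59, 4.85, 4.15 and 5.75 CPM in MockUP 1 to 4 and rose by 1.76 ± 0.22, adjusted p = 0.00321. Trat1, an adaptor that stabilises the T cell receptor complex, measured 3.52, 2.98, 3.57 and 5.13 CPM in Foxp3UP 1 to 4 and 7.43, 6.28, 14.4 and 16.1 CPM in MockUP 1 to 4 and fell by 1.47 ± 0.20, adjusted p = 0.00426. Spry2 (-0.78), an inhibitor of Ras signals, Sh3bp5 (-0.77) and the AMPK subunit Prkab2 (-0.85) fell. Without pair 1, 0 G protein subunits and 0 RGS genes were called higher.

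Rab GTPases, which direct vesicle traffic, rose in 7 of 45 cases (15.6%, against 7.89% of all protein-coding genes) and fell in 0. Rab20 was at 1.01 ± 0.17, adjusted p = 0.00787, and Rab19 at 0.56. Rac2 (0.47), a GTPase of blood cells that acts on the actin skeleton, and Arhgdib (0.57) rose. Of 8 GIMAP genes 4 rose and 0 fell. Of 30 BCL2 family and caspase genes 5 rose (16.7%, against 7.89% of all protein-coding genes) and 2 fell (6.67%, against 7.71%). Casp6 (0.73) and Casp8 (0.40) were among those higher, and Casp4 (-0.43) was lower. The MAP kinase cascade, with 0 of 43 higher and 1 lower, and the 15 non-receptor tyrosine phosphatases, with none called, stood below the share of all genes. Without pair 1, 0 Rab, 0 GIMAP and 0 BCL2 family and caspase genes were called higher.

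Actin-binding proteins led the cytoskeletal changes. Capg, which caps actin filaments, measured 793, 618, 640.2 and 629 CPM in Foxp3UP 1 to 4 and 415, 232, 265 and 278 CPM in MockUP 1 to 4 and rose by 1.20 ± 0.10, adjusted p = 0.000936. Gelsolin, Gsn, which severs them, measured 163, 127, 103 and 108 CPM in Foxp3UP 1 to 4 and 75.4, 70.8, 44.5 and 42.7 CPM in MockUP 1 to 4 and rose by 1.12 ± 0.10, adjusted p = 0.00126. Vimentin, Vim, the main intermediate filament of lymphocytes, measured 1218, 1028, 863 and 941 CPM in Foxp3UP 1 to 4 and 756, 512, 379 and 426 CPM in MockUP 1 to 4 and rose by 1.00 ± 0.10, adjusted p = 0.00179. For these 3 genes all Foxp3UP libraries lay above all MockUP libraries. Abi3 (1.20), a partner of the WAVE actin regulators, and the unconventional myosin Myo3b (1.22) rose. Synpo (-1.59), Nebl (-1.03), Pdlim1 (-0.83) and the neurofilament gene Nefh (-0.86) fell. Nefh measured 23.9, 25.7, 25.8 and 30.7 CPM in Foxp3UP 1 to 4 and 40.00, 51.6, 49.5 and 52.3 CPM in MockUP 1 to 4. Septins had none of 8 members called, and tubulins 1 of 13, which was lower.

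Called genes for RNA and chromatin proteins were more often lower than higher. Of 107 RNA-binding proteins of splicing and decay 2 rose and 23 fell, with pair medians of -0.18, -0.30, -0.20 and -0.18. They included Pabpc1 (-0.46), Hnrnpa0 (-0.55), Srsf7 (-0.39) and Pum3 (-0.47). Pabpc4, a poly(A)-binding protein, measured 13.4, 13.3, 10.02 and 13.05 CPM in Foxp3UP 1 to 4 and 16.8, 27.6, 20.96 and 25.6 CPM in MockUP 1 to 4 and fell by 0.85 ± 0.15, adjusted p = 0.0116. Of 51 RNA helicases 3 rose and 13 fell. Dhx33, a helicase of ribosome production whose promoter is shown above, measured 21.9, 29.3, 29.97 and 29.6 CPM in Foxp3UP 1 to 4 and 40.9, 73.9, 51.1 and 55.98 CPM in MockUP 1 to 4 and fell by 0.98 ± 0.12, adjusted p = 0.0029. Ddx21 (-0.66), Ddx10 (-0.55), Ddx51 (-0.63) and Dhx37 (-0.65), also of ribosome production, fell. The helicases that rose were Ddx28 (0.39), a mitochondrial one, and the antiviral genes Dhx58 (0.36) and Ddx60, which measured 28.8, 25.5, 41.6 and 29.1 CPM in Foxp3UP 1 to 4 and 14.1, 13.98, 16.6 and 11.4 CPM in MockUP 1 to 4 and rose by 1.14 ± 0.13, adjusted p = 0.00212. Among the RNA-binding proteins, Rbm47 rose by 1.01 ± 0.14, adjusted p = 0.00459. The number of RNA-binding genes called lower was 1 without pair 1, 2 without pair 3, 0 without pair 4 and 4 without the block, and that of helicases was 3, 5, 3 and 5 in the same order.

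Histone and arginine methyltransferases and demethylases had 0 of 72 members higher and 10 lower (13.9%, against 7.71% of all protein-coding genes). The family of arginine methyltransferases within it supplied Prmt1, Prmt7 (-0.66), Prmt3 (-0.57), Carm1 (-0.49) and Prmt5 (-0.34). Prmt1 measured 80.9, 89.4, 89.4 and 85.01 CPM in Foxp3UP 1 to 4 and 124, 136, 136 and 155 CPM in MockUP 1 to 4 and fell by 0.67 ± 0.08, adjusted p = 0.00322. Of 55 deubiquitinases 1 rose and 10 fell, with Usp10 at -0.62 ± 0.09, adjusted p = 0.00529. The remodelling and DNA methylation list had 3 of 76 higher (3.95%, against 7.89% of all protein-coding genes) and 8 lower (10.5%, against 7.71%). Among those lower were Chd1 (-0.68), Dnmt3a (-0.36) and Dnmt3b (-0.65). In all, 14.5% of this list and 13.9% of the methyltransferase list were called, against 15.6% of all protein-coding genes. Without pair 1, 2 of the methyltransferase list, 0 deubiquitinases and 0 of the remodelling list were called lower.

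Metabolic enzymes changed in both directions. Of 82 acyltransferases and lipid enzymes 11 rose (13.4%) and 7 fell (8.54%), and without pair 1 these counts were 1 and 0. Among the members that fell were Fasn (-0.95), Acaca (-0.80), Fads1 (-0.64) and Scd2 (-0.50), which make or desaturate fatty acids. Among those that rose were the acyltransferases Gpat3 (1.51), Dgat1 (0.68) and Agpat4 (0.66), the acyl-CoA thioesterase Acot11 and the cyclooxygenase Ptgs1 (1.47). Acot11 measured 25.4, 27.3, 25.2 and 23.7 CPM in Foxp3UP 1 to 4 and 14.9, 17.5, 7.69 and 8.24 CPM in MockUP 1 to 4 and rose by 1.13 ± 0.20, adjusted p = 0.0102. Of 45 detoxification enzymes 8 rose (17.8%, against 7.89% of all protein-coding genes) and 3 fell (6.67%, against 7.71%). Gstt1, a glutathione transferase, measured 5.27, 4.81, 4.76 and 4.06 CPM in Foxp3UP 1 to 4 and 3.34, 0.761, 1.72 and 1.52 CPM in MockUP 1 to 4 and rose by 1.42 ± 0.30, adjusted p = 0.0211, and Cyp2s1 rose by 1.16 ± 0.18, adjusted p = 0.00614. Glycosyltransferases had 2 of 90 higher (2.22%, against 7.89% of all protein-coding genes) and 7 lower (7.78%, against 7.71%). Fut7 (1.03) and Gcnt1 (0.62), which build selectin ligands, rose. Gcnt2, the branching enzyme of I antigen, measured 3.08, 5.31, 2.08 and 3.64 CPM in Foxp3UP 1 to 4 and 7.704, 14.2, 11.9 and 10.1 CPM in MockUP 1 to 4 and fell by 1.64 ± 0.21, adjusted p = 0.00388, and the ganglioside sialyltransferase St8sia1 fell by 0.90 ± 0.14, adjusted p = 0.00688.

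Several of the largest changes lay in genes outside these families. Glrx, the cytosolic glutaredoxin that reverses protein glutathionylation, measured 238, 181, 182 and 164 CPM in Foxp3UP 1 to 4 and 84.6, 47.2, 51.9 and 53.9 CPM in MockUP 1 to 4 and rose by 1.71 ± 0.10, adjusted p = 0.000311. Every Foxp3UP library was above every MockUP library. Izumo1r, which encodes folate receptor 4, a surface marker of regulatory T cells, measured 11.1, 9.45, 16.6 and 18.4 CPM in Foxp3UP 1 to 4 and 4.46, 2.38, 4.05 and 4.34 CPM in MockUP 1 to 4 and rose by 1.84 ± 0.18, adjusted p = 0.00151. Rapsn, known as the acetylcholine receptor clustering protein of muscle, measured 10.9, 6.05, 5.06 and 7.06 CPM in Foxp3UP 1 to 4 and 3.81, 1.24, 0.911 and 1.19 CPM in MockUP 1 to 4 and rose by 2.09 ± 0.23, adjusted p = 0.00215. Endou, a poly(U)-specific endoribonuclease, rose by 2.29 ± 0.46, adjusted p = 0.0163 from levels near 0, and Shisa2 rose by 1.70 ± 0.22, adjusted p = 0.00337. Downward, Prr5l, a partner of the mTORC2 complex, measured 2.64, 2.74, 1.98 and 2.14 CPM in Foxp3UP 1 to 4 and 7.15, 8.94, 8.301 and 9.44 CPM in MockUP 1 to 4 and fell by 1.82 ± 0.19, adjusted p = 0.00179. Lrig1, a surface inhibitor of EGF-family receptors, measured 0.967, 2.74, 3.77 and 4.81 CPM in Foxp3UP 1 to 4 and 5.57, 13.2, 10.2 and 9.76 CPM in MockUP 1 to 4 and fell by 1.73 ± 0.25, adjusted p = 0.00576. Fam78b (-1.80), Oaf (-1.69) and Hemgn (-1.63) fell at low levels.

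Genes outside the protein-coding biotype were called less often. Of 2270 such genes 69 were higher and 82 lower, among them 24 antisense genes higher and 33 lower of 723, and 19 lincRNA genes higher and 14 lower of 291. Bach2os, antisense to Bach2, measured 4.66, 8.54, 10.9 and 7.49 CPM in Foxp3UP 1 to 4 and 15.2, 26.7, 17.1 and 18.6 CPM in MockUP 1 to 4 and fell by 1.32 ± 0.19, adjusted p = 0.00547. Bach2 fell as well (-1.26), and reads of the pair cannot be told apart if strand was not used. Ighm, filed under immunoglobulin constant genes, measured 284, 276, 334 and 346 CPM in Foxp3UP 1 to 4 and 172, 126, 202 and 195 CPM in MockUP 1 to 4 and rose by 0.85 ± 0.09, adjusted p = 0.00212. The other B cell genes are given above. Lsmem2, listed as lincRNA in the annotation release used for names, fell by 1.46 ± 0.28, adjusted p = 0.0138. Mir6381 rose by 0.74 ± 0.16, adjusted p = 0.0232 as a host-region count, not a mature miRNA level.

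The effect in the UP arm differed from that in the DN arm for many of these genes. The difference of effects, (Foxp3UP minus MockUP) minus (Foxp3DN minus MockDN), was called for 1739 of 13711 genes (12.7%). Of the 1829 genes called in Foxp3UP against MockUP, 1428 were also called for the difference in the same direction and 0 in the opposite direction. Of the 127 called genes selected for naming, apart from Thy1, 121 were called for the difference. Both tests use the same 8 UP libraries, so these counts are not independent, and the change within the DN arm is not given here. The exceptions among these selected genes were Endou, Foxp4, Tgfbr3, Ms4a4a, Hspd1-ps3 and Mir6381.

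The 4 pairs were not alike in gene length. Over the 2606 shortest tested genes, up to 1902 bases of exon, the median log2 ratio was 0.44 in pair 2, against 0.03, -0.03 and -0.07 in pairs 1, 3 and 4. Over the 2605 longest, from 6976 bases, it was -0.30 in pair 2, against -0.10, 0.03 and 0.01. Pair 2 holds MockUP 2. Some families had a negative median in pair 2 alone, as the receptor-type tyrosine kinases and phosphatases (-0.37 against 0.11, 0.10 and 0.16). C-type lectins and Siglecs had 0.47 in pair 2 against -0.05, -0.01 and -0.02. The annexin group, protease inhibitors, tetraspanins, chemokine receptors, CD-numbered genes and MHC genes had positive medians in all 4 pairs. The RNA-binding proteins, RNA helicases, deubiquitinases and TNF ligands had negative medians in all 4. In bulk RNA, a change per cell and a change in the share of cells that express a gene cannot be told apart.

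**Figure D5:**
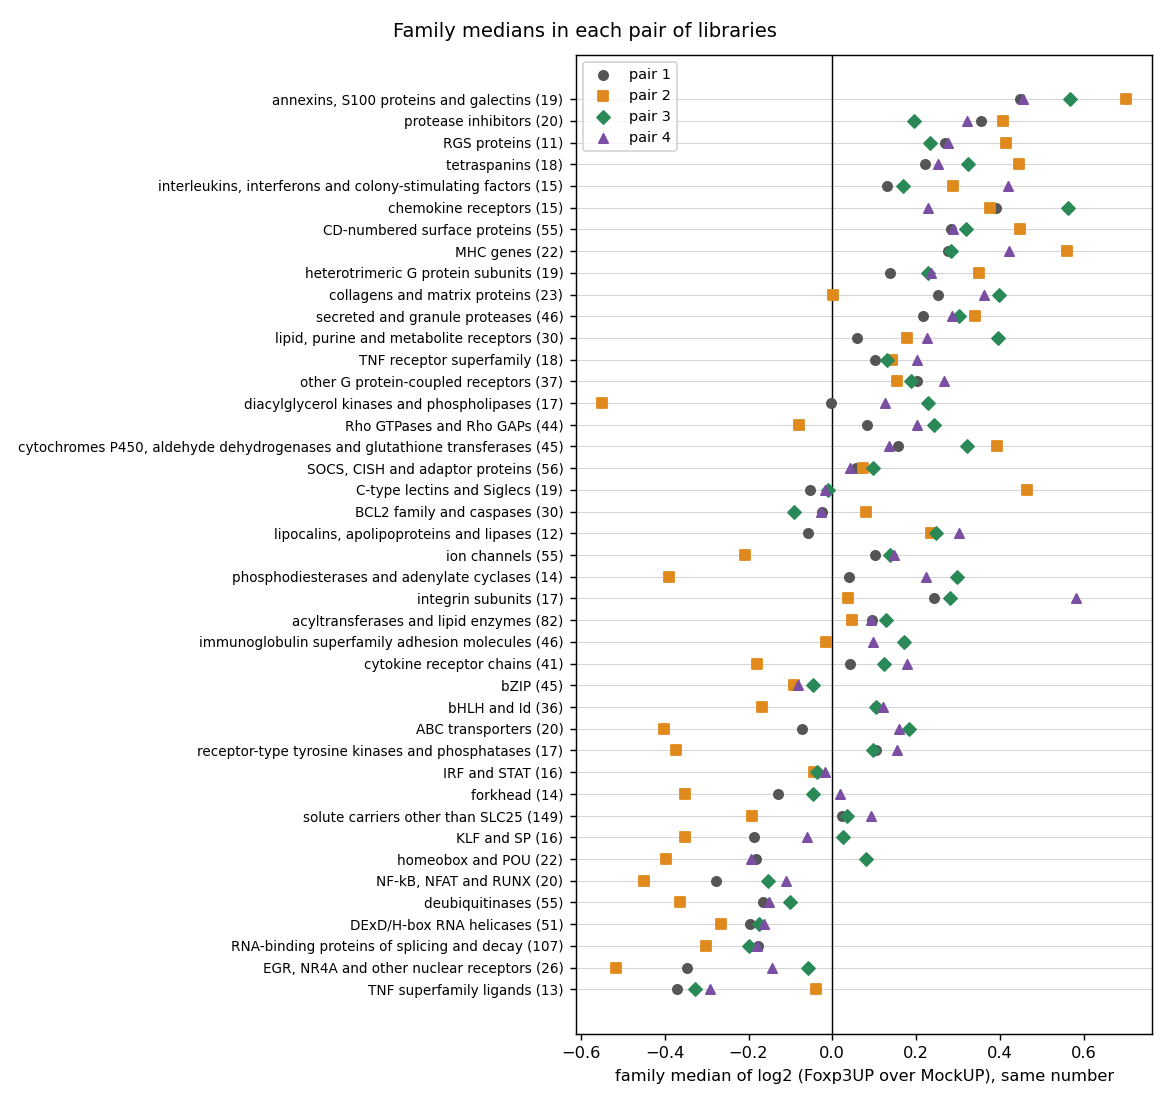
Median log2 ratio of Foxp3UP over MockUP of the same replicate number, for the tested members of the 42 families with at least 10 tested members and at least 20% called, in pairs 1 to 4. Pair 2 (squares) stands apart from the other pairs in several families, while the annexin, S100 and galectin family is above 0 and the RNA-binding family below 0 in every pair.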

How the data were processed

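Values are raw counts, deposited as a gene by library table whose columns, per the file headers, include coordinates and exonic length. STAR 2.6.1 and Subread 1.6.3 with mm10 are credited in the submitters' processing notes. No source used here gives the annotation release or strand use, so overlapping, antisense and near-identical genes (Serpina3, Ly6, MHC, Gst and GIMAP members) are uncertain. Symbols came from GENCODE M21, which named 55480 of 55573 identifiers.

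The 8 libraries were filtered with filterByExpr, scaled by TMM and tested with the quasi-likelihood F test of edgeR 4.0.16 (R 4.3.3; two-sided, Benjamini-Hochberg adjusted p under 0.05), with the replicate number as a block. Deviations from group means of same-numbered libraries correlated at 0.670, 0.241, 0.325 and 0.442, those of unlike numbers at -0.493 to 0.398 (Foxp3UP 4 with MockUP 3), and the cells had been transferred as a mixture. SE is the log2 fold change divided by the square root of F (median 0.14). The difference of effects used all 16 libraries with the number within each arm as a block. DESeq2 1.42.0 was an alternative, as were no block, other scalings and filters, and left-out pairs. On simulated counts for 12846 genes recovery was 44.8% for changes of 1.5-fold, 91.0% for 2-fold and 100% for 4-fold, with 10 false among 167 calls. Changes were placed in 67, 67 and 66 genes, all above a minimum mean count. The recovery therefore does not cover genes near the filter limit, and a far smaller share of genes changed than was called in the data.

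The comparison, lists and naming rule were chosen with earlier results of these data known, and some lists were edited for misplaced names after the table was read. Named genes were Thy1, Foxp3, Ptprc, Cd8a, Cd8b1 and Cd3e, then called genes with an average log2 CPM of at least 1, the same sign in 4 pairs and no overlap. From these came the 4 higher and 4 lower with the largest change per class, 6 and 6 in no list, 3 and 3 not coding for protein, leaving out genes already described for this series and predicted genes, and last the called member with the smallest p of each family with at least 2 called. Other genes are called members of the lists, chosen after their values were seen. Of 10751 tested protein-coding genes, 8562 matched a promoter by symbol, and 7597 had one within 500 bases of the deposited gene start.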

Additional observations from a re-analysis of the deposited data

Results flagged for a closer look

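Among 264 groups of 4 libraries, 2 for each gene selected for naming, 21 held a library far from the other 3, where chance flags about 1 in 20. MockUP 2 gave 6 of them. In that library Abcb1b (174.5 CPM), Foxp4 (44.4), Tgfbr3 (4.28) and the corepressor gene Trim28 (184.8) were highest in their group, and the ubiquitin ligase gene March2 (48.7) and Rac2 (779.8) were lowest. MockUP 1 was highest for F2rl2 (28.6 CPM), the linker histone gene H1f0 (120.8), Rapsn (3.81) and Tspan32 (46.1), and lowest for Hic1 (9.84), a transcriptional repressor. MockUP 4 was highest for Lsmem2 (6.29 CPM). Foxp3UP 1 was highest for Angptl2 (4.57 CPM) and Capg (793.3) and lowest for Dhx33 (21.9), Nr4a3 (36.2) and Rel (190.4). Foxp3UP 3 was highest for Klrg1 (14.5 CPM) and Mycn (22.4) and lowest for Pabpc4 (10.0), and Foxp3UP 2 was lowest for Rac2 (1235 CPM).

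The effect in the UP arm differed from that in the DN arm for 1739 genes. Among selected genes that were called for the difference and not already described for this series, the differences of effects with the largest size upward were Nmur1 at 3.87, Itga7 at 3.24, Cysltr1 at 2.69 and Tnfrsf8 at 2.57, and downward Pou6f1 at -2.06, Gcnt2 at -2.06, Prr5l at -1.84 and Fam78b at -1.81. The adjusted p of the differences ran from 0.000218 (Pou6f1) to 0.0148 (Nmur1) with edgeR's quasi-likelihood test.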

How the results depend on the processing

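The number of calls in Foxp3UP against MockUP moved with the replicates and the block more than with scaling or filter. Without the replicate block, which uses the pairing, 658 genes were called, 329 higher and 329 lower, and the difference of effects gave 251 (132 higher and 119 lower). With all 16 libraries and the replicate block within arm there were 3475 (1825 higher and 1650 lower). Replicates 1 and 2 only gave 930 (465 and 465), and replicates 3 and 4 only gave 4795 (2313 higher and 2482 lower). Leaving out 1 pair gave from 347 (without pair 1) to 4038 (without pair 2) calls, from 187 to 1915 higher and from 160 to 2123 lower. For the difference it gave from 585 to 2598 calls, from 295 to 1155 higher and from 290 to 1443 lower. The remaining settings, RLE size factors, library totals, both filters, DESeq2 and 16 libraries without a block, stayed within 1.5 times, between 1597 and 2339 calls, and library totals moved the median of all genes by -0.03. No gene called in the main analysis changed sign under any setting. Every setting reused some or all of the same libraries, so this is not further evidence. Of the 128 called genes selected for naming, 75 were still called without pair 1, 96 without the block, 102 without pair 4, 112 without pair 3 and 128 without pair 2. Ptprc, not called in any setting, was at 0.0061 and 0.0074 with 16 libraries without and with a block, at 0.033 with replicates 3 and 4 only, and from -0.028 to 0.035 with 1 pair left out. The class counts moved by over 1.5 times in either direction under the same settings, while the class medians with 1 pair left out ran from 0.20 to 0.25 for secreted, 0.08 to 0.12 for surface, -0.10 to -0.05 for enzyme and chromatin and -0.09 to -0.02 for transcription factor genes. The class medians that changed sign were those of signalling (0.01, from -0.06 with replicates 1 and 2 only to 0.09 with replicates 3 and 4 only), transcription factor (-0.07, and 0.0023 with replicates 3 and 4 only) and cytoskeletal genes (0.08, and -0.009 with replicates 1 and 2 only). At about 10 reads per CPM, genes near 1 CPM carry wide counting error, and 3 residual degrees of freedom limit all tests.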

Other observations

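The OT1 beta chain segment Trbv12-1 was at 95.6 to 112.8 CPM in Foxp3UP and 131.2 to 234.6 CPM in MockUP, with no overlap, a log2 fold change of -0.89 (edgeR, adjusted p = 0.0121). The constant segments Trac (adjusted p = 0.443), Trbc1 (0.411) and Trbc2 (0.999) were not called. The delta and gamma segments Trdv4 (0.71, adjusted p = 0.0162) and Trgv2 (-0.83, adjusted p = 0.0163) changed in opposite directions, at 7.91 to 19.0 against 5.99 to 11.0 CPM and at 2.32 to 3.53 against 3.71 to 6.88 CPM.

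Within 10 Mb of Thy1 on either side, 26 of 135 tested genes were called (19.3%), 9 higher and 17 lower, against 14.0% of all genes. Crtam, Oaf and Mpzl2, described above as lower, lie in this window. The part of the marker region in their change was not tested. Within the same distance of Ptprc 10 of 96 were called (10.4%) and of Foxp3 6 of 44 (13.6%). Epcam, on the list of epithelial markers, rose by 0.83 on the log2 scale (adjusted p = 0.0192), from 2.85 to 8.30 CPM in MockUP to 7.12 to 14.3 CPM in Foxp3UP, while Krt8 stayed at or under 0.217 CPM and Alb was at 0 in all 8 libraries.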
